A study of Homo sapiens with 12 samples.

Results

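The transient receptor potential (TRP) genes described here are TRPA1, TRPV1, TRPV2, TRPV4, TRPC1, TRPC4, TRPC6, TRPM4 and TRPM7, which are 9 of the 18106 genes that the arrays measured through a probe assigned to a single gene. The list was put together around TRPA1 because that gene had passed the test with both cytokines against vehicle in earlier work on these data, and the other 8 were added as members of the same family. Each of the 9 genes had exactly 1 single-gene probe, so the members and their probes coincide and no gene could be checked against a second probe. All 9 probes had a positive value on all 12 arrays. The probe of TRPV4 was dim throughout, meaning that none of its 4 group means reached the median of all probe values, 0.05 on the log2 scale. The group means of TRPM7 lay close to this median, below it with vehicle, TNFα and IL1β and above it with both cytokines. The group mean of TRPA1 was below it in the vehicle group only.

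The cells were T-HESC, an established cell line made from human endometrial stroma by adding telomerase. Cultures were held in serum-free medium for 24 h and then received vehicle, tumour necrosis factor alpha (TNFα, 5 ng/ml), interleukin 1 beta (IL1β, 1 ng/ml) or both cytokines at these doses for 48 h. There were 3 arrays for each of the 4 treatments, made from cells of passage 13 (replicate 1), passage 28 (replicate 2) and passage 15 (replicate 3), so a passage number joins 4 arrays. Values are log2 intensities from single-colour CodeLink arrays, on a scale where a typical probe lies near 0, which points to scaling by array before deposit, and the small number of arrays limits their precision. The samples come from 1 line in culture, without the epithelial, immune and nerve cells of the endometrium, and in bulk RNA fewer expressing cells and less RNA per cell cannot be told apart.

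TRP channels are cation channels of the plasma membrane and of intracellular vesicles, and most of them let calcium enter the cell when they open. They are grouped by sequence into families, among them ankyrin (TRPA), vanilloid (TRPV), canonical (TRPC) and melastatin (TRPM). TRPA1 is opened by pungent and electrophilic irritants and TRPV1 by capsaicin, acid and heat, and both are best known from sensory neurons that signal pain, where inflammatory mediators such as bradykinin and prostaglandins sensitise them. Canonical channels act downstream of receptors that activate phospholipase C, while TRPM4 conducts monovalent cations when calcium rises and TRPM7 joins a magnesium-permeable channel to a kinase.

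Array medians ran from 0.04 to 0.09 on the log2 scale. On the first principal component, which took 22.6% of the variance, 3 arrays had high scores, namely 171 for the third replicate of vehicle, 68.7 for the third of TNFα and 53.0 for the second of IL1β. Vehicle replicate 1 had −84.8, and the other 8 arrays were between −33.8 and −18.2. The 3 arrays with high scores had been singled out in earlier work on these data, and results that rest on them are also given without them; below they are the arrays that stood apart. Vehicle replicate 1 lay apart on the other side, and values without it are given for TRPV2 and TRPC6. The cytokines' known target SOD2, mitochondrial superoxide dismutase, was higher than with vehicle by 3.96 ± 0.29 with TNFα and 3.49 ± 0.29 with IL1β (SE, n = 3 a group, limma adjusted p = 0.00319 and 0.0123). Of 3 reference response genes listed for the cytokines, SOD2 was the only 1 called with either cytokine alone. TNFAIP3 was higher by 2.09 ± 0.46 and 1.33 ± 0.46 (limma adjusted p = 0.271 and 0.441). CXCL8 averaged 4.51 with vehicle, 8.50 with TNFα and 9.10 with IL1β, and was not called. With both cytokines against vehicle all 3 were called.

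TRPA1 was the member whose level differed most between the treatments. Its log2 intensity in the vehicle cultures was −0.02, −1.83 and −1.39 for passages 13, 28 and 15, which is at or below the level of a typical probe. With TNFα alone it was 3.25, 0.87 and 2.31 in the same order of passages. With IL1β alone it was 2.53, 0.57 and 1.75. With both cytokines it was 3.50, 4.03 and 4.30. The treatments thus ranked vehicle, IL1β, TNFα and both cytokines from low to high, at −1.08 ± 0.95, 1.62 ± 0.99, 2.15 ± 1.20 and 3.95 ± 0.41 (mean ± SD, n = 3). Every array with a single cytokine was above every vehicle array, and every array with both was above every array with a single one. Of all probes, 3.72% and 3.53% were higher on every array with TNFα or IL1β than on any with vehicle. With both cytokines 6.50% and 8.09% were higher on every array than with TNFα or IL1β alone. The TRPA1 ranges of TNFα alone and IL1β alone overlapped, and these neighbours in the order did not differ beyond the spread within groups. That spread includes differences between passages, and the differences within each passage are given below.

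**Figure D1:**
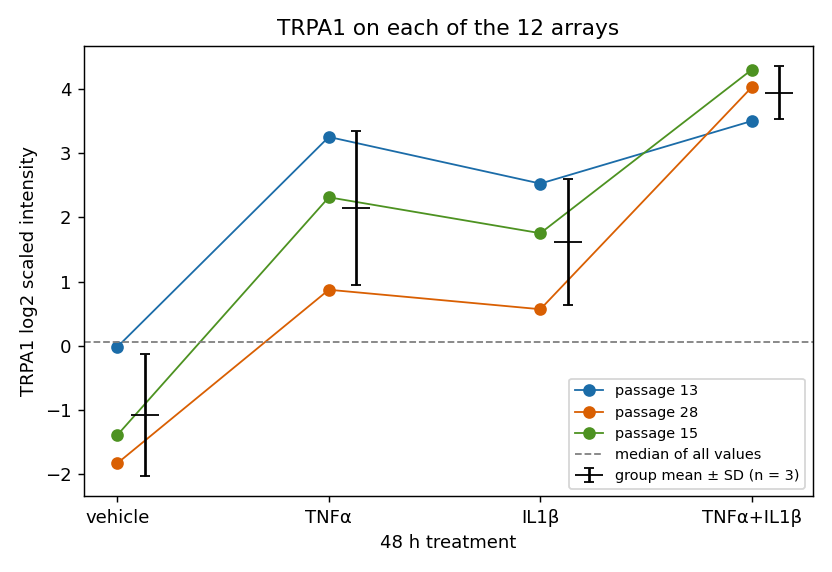
TRPA1 log2 scaled intensity (y axis) on each array, by treatment (x axis), with the 4 arrays of a passage joined by a coloured line and the group mean ± SD (n = 3) in black; the dashed line is the median of all probe values, 0.05. Passage 28 was the lowest of the 3 passages with vehicle, TNFα and IL1β, whereas with both cytokines the 3 passages lay between 3.50 and 4.30 and passage 13 was the lowest.

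The passages differed in level but not in the order of their treatments. TNFα exceeded vehicle by 3.27, 2.70 and 3.70 in passages 13, 28 and 15, and IL1β by 2.54, 2.40 and 3.14. In each passage TRPA1 was higher with TNFα alone than with IL1β alone, by 0.73, 0.30 and 0.56. The step from TNFα alone to both cytokines was uneven, at 0.25, 3.16 and 1.99, and so was that from IL1β alone to both, at 0.98, 3.46 and 2.55. Passage 13, the highest with each single cytokine, gained least when the other cytokine was present as well.

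The single-cytokine differences were tested in a limma model over all probes. TRPA1 was higher than with vehicle by 3.23 ± 0.69 with TNFα (SE, n = 3 a group), and this did not pass (adjusted p = 0.250; unadjusted p = 0.000847). With IL1β the difference was 2.70 ± 0.69, which did not pass either (adjusted p = 0.419; unadjusted p = 0.00286). These 2 comparisons share the vehicle arrays with each other and with the comparison that brought TRPA1 into the list. By size, TRPA1 was at rank 22 among 18106 genes by increase with TNFα and at rank 21 with IL1β, although neither passed the threshold. TNFα alone minus IL1β alone was 0.53 ± 0.69 (adjusted p = 0.948, 95% interval −1.01 to 2.07), and without the 3 arrays that stood apart it was −0.077.

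With both cytokines TRPA1 exceeded vehicle by 5.02 ± 0.69 on the log2 scale (SE, n = 3 a group), rank 5 of 18106 genes. Since TRPA1 was listed because of this difference, it is given as a description with no test. Within passages it was 3.52, 5.86 and 5.69. Because the vehicle level was low, the size depends on how dim values are handled, and after 0.104 intensity units were added before the log it was 4.72. Of the 9 members TRPA1 alone was called in this comparison, in which 0.248% of all 53671 tested probes were called (133 probes, or 88 with passage as a replicate block; 0.188% of all were higher and 0.0596% lower), and nothing is read from that count. The call was absent without the 3 arrays that stood apart, when the difference was 4.87, and in 5 of the 12 fits that left out 1 array. Those 5 fits lacked vehicle replicate 2 (4.65), vehicle replicate 3 (4.87), or replicate 1 (5.25), 2 (4.98) or 3 (4.85) of both cytokines. The call was also absent without passage 13 (5.78), 28 (4.61) or 15 (4.69), with the groups compared alone and with array weights (4.55), so it held in 13 of 24 alternatives. These fits reuse the values that brought TRPA1 into the list, so the tally lends the call no support.

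TRPA1 with both cytokines was also set against each cytokine alone. It was higher by 1.80 ± 0.69 than with TNFα alone (adjusted p = 0.960) and by 2.33 ± 0.69 than with IL1β alone (adjusted p = 0.965), and neither passed. In these comparisons 0.00186% and 0% of all probes were called, and no member was. At an unadjusted p under 0.05 the tests held 2729 and 2347 probes, 5.08% and 4.37% of all. For TRPA1 these comparisons reuse the arrays with both cytokines that brought it into the list, so they are not independent of that choice. The interaction below reuses those arrays and the vehicle arrays.

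How the cytokines combined depended on the scale and on the passage. On the log2 scale the joint difference was below the sum of the single differences by 0.90 ± 0.98, an interaction that did not pass (−0.90, adjusted p = 1.00; 95% interval −3.07 to 1.27). Within passages 13, 28 and 15 it was −2.30, 0.76 and −1.15, and leaving out single arrays or passages moved it between −1.73 and −0.20. On the scale of the deposited intensities, TRPA1 averaged 0.550 with vehicle, 5.45 with TNFα, 3.54 with IL1β and 15.8 with both. Over these group means the increment over vehicle with both cytokines was 15.3 intensity units, against 7.89 for the sum of the separate increments of 4.90 and 2.99. Passage 13 went the other way, with a joint increment of 10.3 below the sum of 13.3. In passages 28 and 15 the joint increments of 16.1 and 19.4 were above the sums of 2.75 and 7.58. The intensities with both cytokines were 11.3, 16.3 and 19.7 for passages 13, 28 and 15, all above the highest intensity with TNFα alone, 9.54 in passage 13. The interaction test called 0% of all probes (1927 probes, 3.59%, at unadjusted p under 0.05), and no member.

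**Figure D2:**
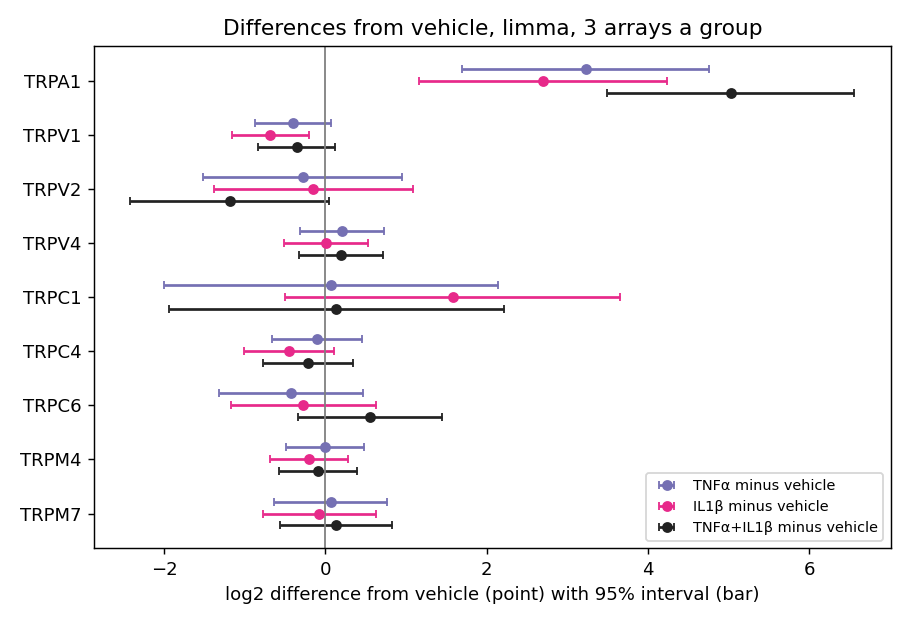
Log2 difference from vehicle (x axis) for each of the 9 genes (y axis) with TNFα, IL1β or both, as limma estimates with 95% intervals (3 arrays a group, all 12 arrays in the fit). The 3 TRPA1 estimates lie between 2.70 and 5.02, and those of the other 8 genes between −1.19 and 1.58.

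Among the other 8 members no difference from vehicle passed in any treatment. With TNFα against vehicle 0 of 9 members were called, where limma called 0.0466% of all probes (25 probes, or 13 with passage as a replicate block; 0.041% of all were higher and 0.00559% lower). With IL1β against vehicle 0 of 9 were called, where 0.00559% of all probes (3 probes, all higher) were called. TRPA1 itself was higher on every array with TNFα, IL1β or both than on any with vehicle, a state shared by 3.72%, 3.53% and 7.02% of all probes. Apart from TRPA1, differences ran from −0.43 to 0.21 with TNFα, from −0.68 to 1.58 with IL1β and from −1.19 to 0.55 with both cytokines. The medians of the 8 genes were −0.05, −0.18 and 0.02, beside −0.05, −0.13 and −0.13 for all probes. At an unadjusted p under 0.05 there was 1 of these 8 genes with IL1β, where 9.67% of all probes were under that level, and 0 with TNFα (7.05%) or with both (12.9%).

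TRPV1, the capsaicin receptor, was lower on every treated array than on any vehicle array. Its log2 intensity was 4.87, 4.49 and 4.51 with vehicle for passages 13, 28 and 15, and 4.25, 4.35 and 4.08 with TNFα. It was 4.33, 3.61 and 3.90 with IL1β and 4.20, 4.28 and 4.33 with both cytokines. The lowest group was IL1β alone, at 3.94 ± 0.36 against 4.63 ± 0.21 for vehicle (mean ± SD, n = 3). That difference of −0.68 ± 0.21 (SE) did not pass (adjusted p = 0.431; 95% interval −1.16 to −0.21), nor did those of −0.40 ± 0.21 with TNFα (adjusted p = 0.764) and −0.36 ± 0.21 with both (adjusted p = 0.515). All 9 within-passage differences of TRPV1 were negative, from −0.88 to −0.14. Quantile normalization moved the 3 differences to −0.45, −0.37 and −0.15. Of all probes, 9.96% were lower on every array with IL1β than on any with vehicle, 6.88% with TNFα and 14.8% with both. A member in any of these states taken singly is thus no exception. The share of probes in all 3 states together was not computed. The interaction of the cytokines was 0.73 ± 0.30 (adjusted p = 1.00).

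TRPV2, a vanilloid channel of the plasma membrane and endosomes, was lowest with both cytokines. Its vehicle values of 2.66, 2.01 and 0.44 for passages 13, 28 and 15 were widely spread. The TNFα values of 1.55, 1.97 and 0.73 and the IL1β values of 1.63, 0.87 and 2.15 lay within that spread. With both cytokines the values were 0.19, 0.72 and 0.63, below every array with either cytokine alone, but only the first of them was below vehicle replicate 3. The difference from vehicle was −1.19 ± 0.55 (SE; adjusted p = 0.405, 95% interval −2.42 to 0.05), from TNFα alone −0.90 ± 0.55 (adjusted p = 0.981) and from IL1β alone −1.03 ± 0.55 (adjusted p = 1.00). Being lower on every array was shared by 14.7% of all probes against TNFα and 6.70% against IL1β. TRPV2 was low on the 3 arrays that stood apart (0.44, 0.73 and 0.87), and without them the difference from vehicle with both cytokines was −1.82 ± 0.30 (adjusted p = 0.0729, the lowest over the alternatives, which reached 0.951). Without vehicle replicate 1, the highest of the gene, it was −0.71. Whether those arrays account for the spread was not tested.

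TRPV4, a channel that responds to osmotic swelling and warmth, gave dim values in all groups. Its 12 arrays lay between −0.78 and 0.05 on the log2 scale, and the group means between −0.45 and −0.24. Differences from vehicle were 0.21 ± 0.24 with TNFα, 0.00 ± 0.24 with IL1β and 0.19 ± 0.24 with both cytokines (adjusted p = 0.784 to 0.998), and quantile normalization turned the sign of the IL1β value.

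**Figure D3:**
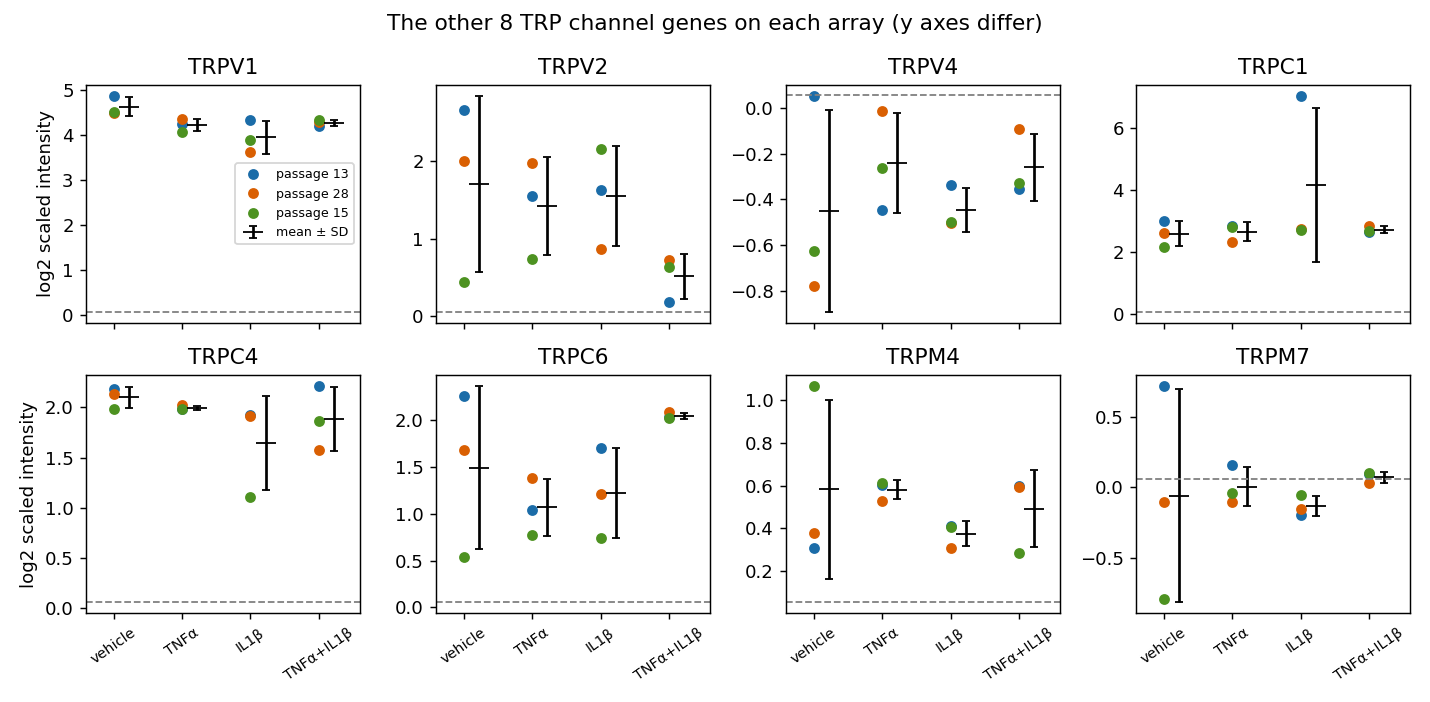
Log2 scaled intensity (y axis, with its own range in each panel) of the 8 other TRP genes by treatment (x axis), as 3 points coloured by passage with the mean ± SD in black; the dashed line is the median of all probe values. TRPC1 has a lone point at 7.03 with IL1β, and TRPC6 is tight near 2.04 with both cytokines. The vehicle values of TRPV2, TRPV4, TRPC6, TRPM4 and TRPM7 are the most spread of their groups.

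TRPC1, a subunit of channels linked to emptied calcium stores, was even across treatments except on a single array. With vehicle its values were 2.98, 2.59 and 2.17 for passages 13, 28 and 15, with TNFα 2.84, 2.30 and 2.81, and with both cytokines 2.65, 2.83 and 2.67. With IL1β they were 7.03, 2.75 and 2.70. The passage 13 array was thus 4.05 above the next highest of all 12 arrays, at an intensity of 130 against 4.49 to 7.89 on the other 11. The IL1β mean of 4.16 ± 2.49 (SD, n = 3) and its difference of 1.58 ± 0.93 from vehicle (SE; adjusted p = 0.614) rest on that array. Without it the IL1β mean was 2.72 and the difference 0.14, which did not pass either. Its spread also widens the intervals of TRPC1 in the other comparisons, since all groups share an error term. TNFα and both cytokines differed from vehicle by 0.07 ± 0.93 and 0.14 ± 0.93 (adjusted p = 0.997 and 0.970).

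TRPC4, a receptor-operated channel subunit, held a narrow range. Vehicle values were 2.18, 2.13 and 1.99 for passages 13, 28 and 15 and TNFα values 1.99, 2.02 and 1.98. IL1β values were 1.93, 1.91 and 1.11, and those with both cytokines 2.21, 1.57 and 1.87. The IL1β arrays were all below the vehicle and the TNFα arrays, but the shift came mainly from passage 15. IL1β differed from vehicle by −0.45 ± 0.25 (adjusted p = 0.595), TNFα by −0.10 ± 0.25 (adjusted p = 0.984) and both cytokines by −0.22 ± 0.25 (adjusted p = 0.768). TNFα alone exceeded IL1β alone by 0.35 ± 0.25 (adjusted p = 0.913), where 10.8% of all probes were higher on every TNFα array and limma called 0% of them (2706 at unadjusted p under 0.05, 5.04% of all) and no member. On every TNFα array 3.91% of all probes and no member were lower than on any IL1β array.

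TRPC6, which diacylglycerol opens after phospholipase C has been activated, had its highest group mean with both cytokines. Its values there were 2.02, 2.08 and 2.02 for passages 13, 28 and 15, the tightest group of this gene. They exceeded every array with TNFα alone (1.04, 1.38 and 0.78) and with IL1β alone (1.70, 1.21 and 0.74). Vehicle values of 2.25, 1.68 and 0.54 spanned the whole range of the gene, so both cytokines differed from vehicle by only 0.55 ± 0.40 (SE; adjusted p = 0.602). Against TNFα alone the difference was 0.98 ± 0.40 (adjusted p = 0.969; unadjusted p = 0.0353) and against IL1β alone 0.82 ± 0.40 (adjusted p = 1.00; unadjusted p = 0.0673), and neither passed. All arrays being higher was the state of 6.50% of probes against TNFα and 8.09% against IL1β. Each single cytokine was lower than vehicle, by −0.43 ± 0.40 for TNFα and −0.27 ± 0.40 for IL1β (adjusted p = 0.910 and 0.864), which gave an interaction of 1.25 ± 0.57 that did not pass (adjusted p = 1.00). Without the 3 arrays that stood apart the interaction was 1.58 ± 0.47, still not called, and the difference of both cytokines from vehicle was 0.077. Without vehicle replicate 1 these were 0.87 and 0.93.

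TRPM4, the calcium-activated monovalent channel, lay between 0.29 and 1.06 on all arrays. Its values were 0.31, 0.38 and 1.06 with vehicle, 0.60, 0.53 and 0.61 with TNFα, 0.41, 0.31 and 0.41 with IL1β, and 0.60, 0.60 and 0.29 with both, for passages 13, 28 and 15. The highest value was that of vehicle replicate 3, and without the 3 arrays that stood apart the signs of all 3 differences from vehicle turned (0.22, 0.07 and 0.15). TNFα differed from vehicle by −0.00 ± 0.22, IL1β by −0.21 ± 0.22 and both by −0.09 ± 0.22 (adjusted p = 0.797 to 0.999). Every TNFα array exceeded every IL1β array, a difference of 0.21 ± 0.22 (adjusted p = 0.938), and 10.8% of all probes were in that state.

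TRPM7, the channel with a kinase domain, was spread with vehicle, at 0.72, −0.10 and −0.80 for passages 13, 28 and 15. With treatment the 9 arrays lay between −0.20 and 0.16. The vehicle group therefore set its error, and the differences of 0.06 ± 0.31 with TNFα, −0.07 ± 0.31 with IL1β and 0.13 ± 0.31 with both did not pass (adjusted p = 0.902 to 0.993). Every array with both cytokines exceeded every IL1β array, by 0.21 ± 0.31 on average (adjusted p = 1.00), a state shared by 8.09% of all probes. Vehicle replicates 1 and 3, at opposite ends of the first principal component, were also at opposite ends of the vehicle values for TRPV2, TRPC6 and TRPM7. The same held for TRPC1 and TRPC4 and, in the reverse order, for TRPM4. Their part in the spread was not tested.

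The rest of the family gave no call either. Of 18 further TRP genes (the remaining canonical, vanilloid and melastatin channels, the lysosomal mucolipins and the polycystin-2 group), 16 were measured and 12 of these were dim throughout. No member rose or fell in any of the 7 comparisons by limma. With both cytokines against vehicle their median difference was −0.13, the same as for all probes, and the lowest adjusted p was that of TRPM8, the menthol and cold receptor (−0.70 ± 0.31, adjusted p = 0.388), a dim probe. With TNFα the median was −0.24 and with IL1β −0.21.

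Genes that act with TRP channels were followed in lists. Of 17 receptors and mediators known to sensitise TRP channels 13 were measured, and with both cytokines against vehicle 1 (PTGES) rose and 0 fell, where 0.188% of all probes were called higher and 0.0596% lower, with a median of 0.33 beside −0.13 for all probes. The measured genes did not all move up. With both cytokines PTGER1 differed from vehicle by −1.91 ± 0.40 (SE, limma adjusted p = 0.111), F2R by −0.94 and PTGER2 by −0.83, and the other measured genes were higher. PTGES is the synthase that makes prostaglandin E from its endoperoxide precursor. Its values were 1.12, 0.58 and 0.38 with vehicle, 2.47, 1.55 and 1.64 with TNFα, 2.71, 1.70 and 1.55 with IL1β, and 3.40, 3.72 and 4.0 with both, for passages 13, 28 and 15. The groups with both cytokines and with vehicle were far apart, and PTGES rose by 3.01 ± 0.37 (SE, n = 3 a group; adjusted p = 0.0114). Its call ended without the 3 arrays that stood apart (2.86, adjusted p = 0.0651) and without replicate 2 (3.00, adjusted p = 0.0697) or 3 (2.86, adjusted p = 0.0623) of both cytokines. It also ended without passage 28 (2.95) or 15 (2.71), with the groups compared alone and with array weights (2.91), so it held in 17 of 24 alternatives, and over all alternatives its adjusted p ran from 0.00168 to 0.420. With TNFα or IL1β alone none of these 13 genes was called (medians 0.08 and −0.03).

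Signalling partners and calcium handling genes gave no calls in any comparison. Of 14 measured signalling and scaffold genes, such as phospholipases and kinases, the median with both cytokines was −0.21, and the lowest p was that of AKAP5, an anchoring protein for kinase and phosphatase (−2.20 ± 0.58, adjusted p = 0.178), on a dim probe. For 12 genes of store-operated calcium entry and release the median was 0.15, led by the inositol trisphosphate receptor ITPR2 (0.92 ± 0.27, adjusted p = 0.215). The 9 calcium pumps and exchangers had a median of 0.02, led by the sodium-calcium exchanger SLC8A3 (1.30 ± 0.36, adjusted p = 0.194). The 10 calcineurin and NFAT genes, the calcium-driven phosphatase and its transcription factors, had a median of 0.01, led by the regulatory subunit PPP3R1 (−1.26 ± 0.46, adjusted p = 0.296).

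The genes whose pattern over the 12 arrays was most like that of TRPA1 were found by Pearson correlation among 16994 other genes with a value on every array. They were TNFAIP3 (r = 0.976), the ubiquitin-editing inhibitor of NF-kB signalling, BDKRB1 (0.960), the inducible bradykinin receptor, TNIP3 (0.954), which binds the TNFAIP3 protein, HSD11B1 (0.949), the cortisol-regenerating enzyme, and C1QTNF1 (0.945), a secreted protein related to complement C1q. All 12 arrays enter these correlations with their treatments, so they describe a broadly similar course over treatments and passages and carry no test. The order was not the same on each array: in passage 13 BDKRB1, TNIP3 and C1QTNF1 were lower with both cytokines (3.27, 1.44 and 3.77) than with TNFα alone (3.69, 1.63 and 4.07), unlike TRPA1. TNFAIP3 had values of 0.79, 0.01 and −0.30 with vehicle, 3.19, 1.59 and 1.98 with TNFα, 2.07, 0.77 and 1.65 with IL1β and 3.35, 3.28 and 3.35 with both, for passages 13, 28 and 15. As with TRPA1, passage 28 was the lowest and passage 13 the highest with either cytokine alone, and the passages came together with both. The 3 arrays with both cytokines scored −21.3, −27.5 and −29.6 on the first principal component, and the arrays that lay apart were all in other groups. Whether the closeness of these genes goes beyond that of the arrays was not tested. BDKRB1 had 2.29, 0.90 and 1.42 with vehicle, 3.69, 2.48 and 3.36 with TNFα, 3.41, 2.42 and 2.98 with IL1β and 3.27, 3.44 and 3.71 with both. It differed from vehicle by 1.64 ± 0.42, 1.40 ± 0.42 and 1.94 ± 0.42 in these treatments (adjusted p = 0.378, 0.431 and 0.122), and the last passed only when dim probes were left out before adjustment (adjusted p = 0.0452, against up to 0.843 under other alternatives). By Spearman correlation HSD11B1 and TNFAIP3 were also within the first 5 ranks, and TNIP3, BDKRB1 and C1QTNF1 were at ranks 8, 11 and 18. None of the other 8 TRP genes was near, and their r ran from −0.39 for TRPV2 to 0.38 for TRPV4.

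**Figure D4:**
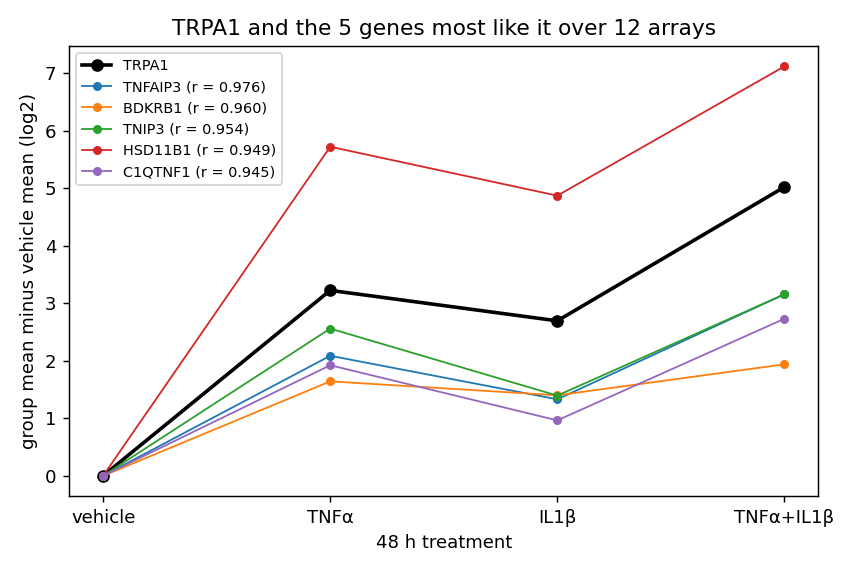
Group mean minus vehicle mean on the log2 scale (y axis) by treatment (x axis) for TRPA1 (black) and the 5 genes most correlated with it over the 12 arrays (colours, with Pearson r). Each line is higher with TNFα alone than with IL1β alone and highest with both cytokines, and TRPA1 ends at 5.02.

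Markers of cell types were read beside these results. Of 8 stromal fibroblast markers 7 were measured and none was dim throughout, with decorin, lumican and collagen genes among them. Of 11 sensory neuron markers 9 were measured and 4 were dim throughout, namely the sodium channel SCN10A, the neuropeptide genes CALCA and TAC1 and the transcription factor ISL1. The remaining measured markers, PRPH, TUBB3, SCN9A, POU4F1 and RBFOX3, were not dim throughout. The sodium channel SCN9A was well above the median probe at 5.06 ± 0.35 with vehicle and 3.75 ± 0.51 with both cytokines (mean ± SD, n = 3; difference −1.31 ± 0.40, adjusted p = 0.228). The summed intensity of the 9 measured markers was 43.7 to 54.1 with vehicle, 28.6 to 35.1 with TNFα, 22.2 to 40.6 with IL1β and 21.9 to 31.6 with both. Without SCN9A the sum of the other 8 was 11.6 to 18.2 with vehicle, 11.7 to 13.5 with TNFα, 9.80 to 12.3 with IL1β and at most 11.4 with both. Of 6 leukocyte markers 4 were dim throughout (PTPRC, CD14, MS4A1 and LYZ), and their sum was 5.41 to 8.27 with vehicle and 8.42 to 9.20 with both. Of 5 endothelial markers 3 were dim throughout, with sums of 16.2 to 20.9 with vehicle and 15.5 to 16.6 with both. Of 5 measured epithelial markers 2 were dim throughout, and with both cytokines keratin KRT18 fell by 1.58 (SE 0.26, adjusted p = 0.0447), the sum being 79.7 to 116 with vehicle and 35.2 to 37.1 with both. The KRT18 call ended in 11 of the 12 fits that left out 1 array, all but the one without TNFα replicate 2, with differences from −1.69 to −1.39. The 3 measured smooth muscle markers summed to 86.7 to 172 with vehicle and 76.1 to 108 with both. The part of these markers in the TRPA1 values was not tested.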

How the data were processed

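The deposited values are linear intensities from single-colour arrays, 1 culture to a slide, per the labels. Image analysis, background and normalization software is not given in the sources used here, and scaling of each array's intensity to its median by the authors was inferred from the values. The code −9999 (0.716% of values) and values at or below 0 (1.10%) were set to missing before log2. The platform table gave 23472 of 54359 probes 1 gene, 905 several and 29982 none, and 23434 symbols were updated by Entrez identifier to RefSeq names. Of these probes 53671 had 2 or more values in each group and were tested. Of several probes for a gene, the brightest stood for it.

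Group means of all 12 arrays were fitted with limma 3.58.1 in R 4.3.3 (two-sided, 8 residual degrees of freedom), with Benjamini-Hochberg adjustment over all probes tested and a threshold of 0.05. The fit had been run on simulated independent normal values. These held no shared passage and no arrays that lay apart, so that run checks the code and not its behaviour on these arrays. An exact permutation test of 3 against 3 cannot go below 0.1. Replicate numbers mark a shared passage in the labels; residual correlations of same-passage arrays averaged 0.007 (18 pairs, −0.196 to 0.310), against −0.003 for 36 other pairs. Passages of 1 line are separate cultures but not separate donors. The members, lists and arrays to leave out were chosen with earlier results of these data known. Every member was named, with the 5 genes most like TRPA1 and, from each list, the called genes or the one with the lowest p with both cytokines. SCN9A, KRT18 and the lower genes among the sensitising receptors (PTGER1, F2R and PTGER2) were chosen after their values were seen.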

Additional observations from a re-analysis of the deposited data

How the results depend on the processing

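Alternatives were quantile normalization, an offset before the log, dropping dim probes or probes with missing values, passage as a replicate block, the compared groups alone, limma's trended, robust variance prior, array weights, and leaving out each array, each passage or the 3 arrays that stood apart. They were also run for PTGES, BDKRB1, SOD2, CXCL8, TNFAIP3 and KRT18, a choice made after seeing the data. With passage as a replicate block TRPA1 kept its differences (3.23, 2.70 and 5.02) with an SE of 0.51, and the block changed no call of a member. The count of members called with both cytokines against vehicle was 1, which was TRPA1, listed because of this difference, and is no test. It was 0 with the groups compared alone, with array weights and without the 3 arrays that stood apart. Leaving out 1 array gave 0 to 1, and leaving out a passage gave 0 for each of the 3. In the other 6 comparisons it was 0 under all alternatives run. Leaving out arrays or passages, TRPA1 kept its sign in all comparisons except TNFα against IL1β (−0.024 to 1.17), which without the 3 arrays that stood apart was −0.077. The value of −0.024 came without TNFα replicate 1. In both of these fits the remaining TNFα and IL1β arrays were not of the same passages. Differences of other members near 0 changed sign, none of them called. With TNFα, leaving out arrays or passages gave −0.91 to 0.19 for TRPV2, −0.070 to 0.56 for TRPV4, −0.21 to 0.27 for TRPC1, −0.15 to 0.24 for TRPM4 and −0.30 to 0.45 for TRPM7. With IL1β it gave −1.08 to 0.34 for TRPV2, −0.16 to 0.25 for TRPV4, −0.75 to 0.11 for TRPC6, −0.36 to 0.034 for TRPM4 and −0.48 to 0.35 for TRPM7. With both it gave −0.057 to 0.49 for TRPV4, −0.070 to 0.37 for TRPC1, −0.28 to 0.25 for TRPM4 and −0.25 to 0.52 for TRPM7. Without the 3 arrays that stood apart the values with TNFα were −0.21 (TRPC1), 0.22 (TRPM4) and −0.28 (TRPM7), with IL1β −0.055 (TRPV4) and 0.067 (TRPM4), and with both −0.070 (TRPC1), 0.15 (TRPM4) and −0.24 (TRPM7). Array weights gave −0.082 for TRPV4 and −0.079 for TRPM7 with TNFα, 0.027 (TRPV2) and −0.25 (TRPV4) with IL1β, and −0.044 (TRPV4) and −0.060 (TRPM7) with both. TRPV4 with IL1β was −0.036 after quantile normalization and −0.00194 with the offset. The cause of these changes was not tested. Without detection calls in the files, how far the dim values of TRPV4, TRPM7 and untreated TRPA1 exceed background is unknown.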

Other observations

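The TRPC1 value of IL1β replicate 1 was looked at as a spot that lies far above the same probe on all other arrays. Among the 48012 probes with a value on all 12 arrays, 2 on that array were at least 3 log2 units above every other array. The other arrays had 0, 2 and 6 such probes with vehicle, 2, 2 and 1 with TNFα, 6 and 1 on the remaining IL1β arrays and 0, 1 and 1 with both cytokines, in the order of the replicates. The 3 arrays that stood apart thus held 6 (vehicle replicate 3), 1 (TNFα replicate 3) and 6 (IL1β replicate 2).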
